A study of Rattus norvegicus with 24 samples.

Results

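The genes described here are 8 that buffer, sense or move zinc: the metallothioneins Mt1, Mt2A and Mt3, the zinc-sensing transcription factor Mtf1, the zinc exporters Slc30a1 (ZnT1) and Slc30a3 (ZnT3), and the zinc importers Slc39a8 (ZIP8) and Slc39a14 (ZIP14). They were chosen by name, with earlier results of these data known, and they are 8 of the 29539 genes in the count table. A filter on low counts passed 14421 genes, among them 7 of the 8. Mt1 did not pass it and is given as counts, with no test.

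RNA was sequenced after poly(A) selection from 24 samples of rat (Rattus norvegicus) brain in 3 groups of 8 libraries. The normal control libraries carry no treatment or wound in their labels and are called neither sham nor naive there. The vehicle libraries have no further description in their labels, and are taken to be wounded brain that received the carrier without the agonist. The SKF libraries are named for SKF-81297, an agonist of D1-like dopamine receptors, which the series description gives into the peritoneum daily for 3 days, the first dose 1 h after a stab wound of the forebrain. Strain, sex, age, brain region, time of collection and any pooling of animals were not given in the labels, nor do the labels tie each sample to an animal of its own. Each p-value therefore measures the spread between these samples.

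Metallothioneins are small cysteine-rich proteins that bind zinc and copper in the cytosol. When free zinc rises, MTF-1 binds metal response elements in promoters and drives transcription of Mt1, Mt2A and Slc30a1. Glucocorticoids and Stat3 are known as further inducers of Mt1 and Mt2A. In brain, Mt1 and Mt2A are known mainly from astrocytes, Mt3 is a brain form made by astrocytes and neurons, and Slc30a3 loads zinc into the glutamatergic synaptic vesicles of the forebrain.

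The promoters of the metallothioneins and of Slc30a1 are shown because they hold matches to the core of the sequence through which MTF-1 is known to act. Each is the 250 bases before the annotated start in RefSeq, 5′ to 3′ on the gene's strand, in build GRCr8, which is not the build of the counts (mRatBN7.2). Capitals mark matches to the core of the metal response element, searched as TGCACNC or TGCGCNC on both strands.
Mt1 (chr19:10832976-10833225, - strand): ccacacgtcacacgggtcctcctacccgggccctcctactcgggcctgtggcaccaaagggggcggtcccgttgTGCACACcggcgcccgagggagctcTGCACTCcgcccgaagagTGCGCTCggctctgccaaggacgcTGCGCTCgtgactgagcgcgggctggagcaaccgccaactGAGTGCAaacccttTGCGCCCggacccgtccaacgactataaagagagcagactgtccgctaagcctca
Mt2A (chr19:10838709-10838958, - strand): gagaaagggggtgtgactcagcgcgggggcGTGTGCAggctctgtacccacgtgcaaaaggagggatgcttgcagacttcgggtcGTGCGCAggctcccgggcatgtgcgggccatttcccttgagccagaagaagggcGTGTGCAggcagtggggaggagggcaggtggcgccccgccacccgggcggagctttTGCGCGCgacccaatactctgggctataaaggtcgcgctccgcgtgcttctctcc
Mt3 (chr19:10856081-10856330, - strand): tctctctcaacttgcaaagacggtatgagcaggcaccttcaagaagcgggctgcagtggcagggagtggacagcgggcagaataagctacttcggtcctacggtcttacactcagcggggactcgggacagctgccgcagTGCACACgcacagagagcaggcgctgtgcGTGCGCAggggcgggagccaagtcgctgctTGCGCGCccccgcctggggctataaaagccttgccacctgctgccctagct
Slc30a1 (chr13:106021769-106022018, + strand): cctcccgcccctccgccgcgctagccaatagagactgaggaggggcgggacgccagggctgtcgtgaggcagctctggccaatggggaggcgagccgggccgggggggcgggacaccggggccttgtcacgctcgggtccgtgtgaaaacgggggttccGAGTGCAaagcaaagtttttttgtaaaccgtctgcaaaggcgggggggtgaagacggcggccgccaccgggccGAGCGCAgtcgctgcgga

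The Mt1 window holds 6 matches, the Mt2A window 4, the Mt3 window 3 and the Slc30a1 window 2. Among 33469 RefSeq promoters of the same length, 20.6% hold at least 1 match, 1.17% at least 3 and 0.0747% at least 5. The share that holds at least 2 was not counted, so the 2 of Slc30a1 have no background beside them. The Mtf1 window, not printed, also holds 2, and those of Slc30a3 and Slc39a8 hold 0. All 3 metallothionein windows also hold the letters TATAAA, 32 bases before the start in Mt1 and 31 in Mt2A and Mt3. The 3 genes and Mt4 lie next to each other on chromosome 19, between Nup93 and Bbs2. The core of the antioxidant response element (TGACNNNGC, either strand), which 10.1% of promoters hold, occurs 2 times in the Mtf1 window and 1 time each in those of Mt1, Mt2A, Slc30a1 and Slc39a8. The STAT core (TTCNNNGAA), which 7.67% hold, occurs in the window of Slc39a8 alone among the 7 members with a RefSeq promoter entry, which are all but Slc39a14. A match is a run of letters and was not tested as a binding site, and the 3 motifs were counted separately.

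Total counts per library ran from 8911339 to 12383368. Levels are given as counts per 1000000 (CPM), scaled to library totals adjusted by the TMM method, with the lowest, median and highest library of each group. Neuron markers were present in every library (10 of 10 genes, summed level 6576 to 8204 CPM in normal control, 4401 to 6734 in vehicle and 5290 to 7094 in SKF). Libraries of the normal control group stand apart in tissue make-up. Normal control 4 had 2438 CPM summed over 8 skeletal muscle markers, against at most 15.1 in any vehicle or SKF library. Normal control 6 had the highest striatal neuron sum (6438 CPM) and, at 98.5 CPM against a group high of 1208, the lowest thalamus sum of its group. Results that rest on these libraries are given with and without them. Leaving them out does not remove the group difference in thalamus markers, and its part in the changes of the members was not tested. In bulk RNA, fewer cells of a type and less RNA per cell cannot be told apart.

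In the wound comparison the metallothioneins parted. Mt2A rose 9.42-fold in vehicle and 10.9-fold in SKF, Mt3 fell in both, and Mt1 was near or at 0 counts throughout. Of the 7 members tested by edgeR in vehicle against normal control, 3 were higher (Mt2A, Slc30a1, Slc39a14), 2 lower (Mt3, Mtf1) and 2 not called (Slc30a3, Slc39a8), and in SKF against normal control each gene fell into the class it had in vehicle. Over all genes 26.9% were called higher and 27.1% lower in the former comparison, and 25.5% and 24.7% in the latter, so the counts of members called are near the background. The median log2 fold change of the 7 was 0.09 and 0.03, beside -0.01 over all genes in each. The libraries of the groups did not overlap for 2 of the 7, Mt2A and Mtf1, in either comparison in CPM, against 19.1% of all genes for vehicle and 18.6% for SKF. Both comparisons share the 8 normal control libraries.

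**Figure D1:**
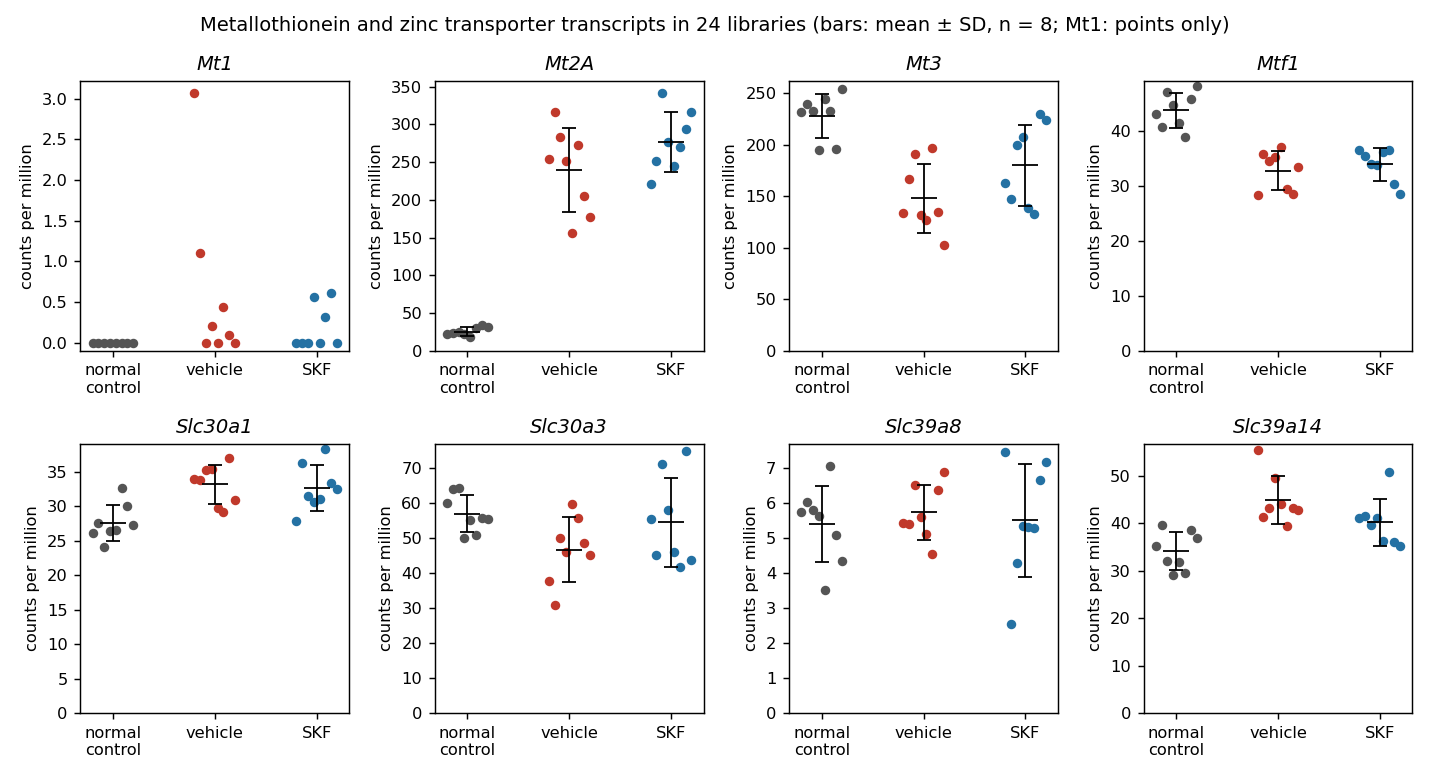
CPM of each of the 8 genes in every library, 1 point per library, with black bars for the mean ± SD of 8 libraries (points only for Mt1). Every vehicle and SKF library lies above every normal control library for Mt2A and below for Mtf1, while Slc39a8 overlaps throughout.

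Mt2A, the inducible metallothionein, was at 17.7, 23.6 and 34.0 CPM (lowest, median, highest) in normal control. In vehicle the 3 values were 155, 253 and 317 CPM, and in SKF they were 221, 274 and 341 CPM. The lowest wounded library, vehicle 5, was above the highest normal control library, normal control 7. Means were 25.4 ± 5.60 CPM (SD, n = 8) for normal control, 239 ± 55.5 for vehicle and 277 ± 39.5 for SKF. The log2 fold change in vehicle against normal control was 3.24 ± 0.15 (SE; edgeR adjusted p = 5.24e-15) and in SKF against normal control 3.45 ± 0.15 (adjusted p = 2.08e-15). Ordered from the largest rise, Mt2A was number 166 of 14421 genes in vehicle and number 120 in SKF.

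Markers of reactive astrocytes, macrophages and neutrophils moved with Mt2A. All 9 tested reactive astrocyte markers rose in vehicle (median log2 fold change 2.91), and their summed level was 504 to 974 CPM in normal control, 3716 to 5479 in vehicle and 4424 to 5031 in SKF. Serpina3n, the other marker of that list, had 0 counts in every library. Gfap, the filament of astrocytes, rose by 2.46 ± 0.12 on the log2 scale (edgeR adjusted p = 1.26e-15), beside 3.24 for Mt2A. Resting astrocyte markers went the other way, 8 of 10 lower and 1 higher, with Aldoc at -0.70 ± 0.08 (edgeR adjusted p = 9.55e-08), and their sum was 4999 to 5526 CPM in normal control, 4075 to 5077 in vehicle and 4343 to 5021 in SKF. Blood-derived macrophage markers rose in 9 of 9 tested genes, from 37.8 to 53.9 CPM summed in normal control to 495 to 724 in vehicle and 369 to 696 in SKF. Ms4a7, the other gene of that list, averaged 0.147, 0.130 and 0.330 CPM in the 3 groups and did not pass the filter. Msr1 and Ccr2, at 0.0615 and 0.0964 CPM in normal control, passed it through the wounded groups and could scarcely have fallen. Whether the transcripts of this list came from blood-derived cells was not tested. Neutrophil markers rose in 6 of 6 tested genes, from 4.01 to 7.15 CPM to 117 to 250 and 105 to 231. Of these S100a8, S100a9, Cxcr2 and Mmp8 averaged 0.326, 0.365, 0.129 and 0.147 CPM in normal control. They passed the filter through the wounded groups and could scarcely have fallen. Mpo, Elane, Ngp and Camp did not pass it, at means of 0.0106, 0, 0.110 and 0.227 CPM in normal control. In vehicle they were at 0.0433, 0.237, 0.0334 and 0.400, and in SKF at 0.0227, 0.0241, 0.0344 and 0.102. Lcn2, which is also on the reactive astrocyte list, averaged 0.793, 124 and 109 CPM in the 3 groups. It made up most of the neutrophil sum in vehicle and SKF. Of 8 microglia markers tested, 2 rose and 4 fell in vehicle (median log2 fold change -0.65), and their sum was 249 to 321 CPM in normal control, 228 to 342 in vehicle and 217 to 285 in SKF. The genes that fell were P2ry12 (-1.49), Tmem119 (-1.51), P2ry13 (-1.95) and Selplg (-1.17), and those that rose were Csf1r (0.39) and Aif1, a microglial calcium-binding protein (0.57 ± 0.17, edgeR adjusted p = 0.00465). Red blood cell markers rose in 2 of 3 tested genes, with sums of 188 to 317, 755 to 2381 and 686 to 2736 CPM in the 3 groups, and oligodendrocyte markers fell in 9 of 10. The part of these cells in the rise of Mt2A was not tested.

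Genes of the Il6 and Stat3 pathway and of the glucocorticoid response were set beside Mt2A from lists, and their part in its rise was not tested. Of 12 genes of the Il6 family and Stat3 pathway, 11 rose and 1 was not called in vehicle, with a median log2 fold change of 2.56. Over all genes 26.9% were called higher. Il11, Il6, Osm and Lif averaged 0, 0.0698, 0.275 and 0.599 CPM in normal control. These 4 genes passed the filter through the wounded groups and could scarcely have fallen. Stat3 rose from 72.1 to 268 CPM on average (log2 fold change 1.89 ± 0.10, edgeR adjusted p = 7.08e-15), the receptor Osmr from 2.93 to 27.5 CPM (3.23 ± 0.13, adjusted p = 5.29e-17) and the feedback inhibitor Socs3 from 1.65 to 110 CPM (6.06 ± 0.23, adjusted p = 3.10e-16). Of 8 genes of the glucocorticoid response, 3 rose and 4 fell, with a median of -0.13. Nr3c1, the glucocorticoid receptor, was lower by edgeR (log2 fold change -0.29 ± 0.06, adjusted p = 0.000177) but was not called on the TPM scale (-0.17 and -0.16 with pseudocounts of 0.1 and 1). Ddit4, a glucocorticoid-induced inhibitor of mTOR, fell from 64.6 to 44.8 CPM (-0.53 ± 0.09, adjusted p = 7.87e-06). The genes of that list that rose were Fkbp5 (log2 fold change 0.58 ± 0.14, edgeR adjusted p = 0.000721), Sgk1 (0.58 ± 0.18, adjusted p = 0.00800) and Errfi1 (0.23 ± 0.09, adjusted p = 0.0376). In SKF against normal control they were at 0.78, 1.00 and 0.38, and the 2 lists gave 11 rises and 0 falls of 12, and 3 rises and 2 falls of 8.

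Mt1, the other inducible metallothionein, had 0 counts in all 8 normal control libraries, where the floor of 3 counts per library corresponds to 0.250 to 0.294 CPM. The vehicle libraries held 48 counts in all, in 5 of 8 libraries, of which 30 were in vehicle 1, 11 in vehicle 2, 4 in vehicle 6, 2 in vehicle 4 and 1 in vehicle 7. Without vehicle 1 the vehicle libraries held 18 counts. The SKF libraries held 16 counts in 3 of 8 libraries, 6 each in SKF 4 and SKF 7 and 4 in SKF 6. With normal control at 0 and most of the counts in single libraries, no fold is given. RefSeq lists 4 further copies of Mt1 in the rat genome (Mt1-ps1, Mt1-ps3, Mt1-ps4 and Mt1m), of which Mt1m alone is in the count table, at 0 counts in every library. How reads shared by near-identical copies were counted is not given in the sources used here, so the level of Mt1 is uncertain, and the part of such copies was not tested. SKF 3, the highest library for Mt2A, had 0 counts of Mt1, and vehicle 2, the highest vehicle library for Mt2A, had 11. On the log2 scale of TPM with a pseudocount of 0.1, the ratio of Mt2A to Mt1 averaged 10.6 ± 0.29 (SD, n = 8) for normal control, 10.9 ± 2.69 for vehicle and 12.4 ± 2.46 for SKF. With Mt1 at 0 in most libraries this value follows the pseudocount, and no difference passed (two-sided exact permutation test, adjusted p = 0.749 for vehicle and 0.0996 for SKF against normal control, and 0.424 for SKF against vehicle).

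Mt3, the brain metallothionein, was at 195, 232 and 254 CPM in normal control, 102, 134 and 197 CPM in vehicle and 133, 181 and 230 CPM in SKF. All vehicle and SKF libraries were below the normal control median, but the groups overlapped. In CPM 7 of 8 vehicle and 4 of 8 SKF libraries were below every normal control library, and in TPM 6 and 4. Vehicle 6, the highest of its group, was within the normal control range. Mt3 fell by 0.62 ± 0.13 on the log2 scale in vehicle (edgeR adjusted p = 2.28e-04). In SKF the log2 fold change was -0.34 ± 0.13 (edgeR adjusted p = 0.0297), and that call did not hold everywhere. It was lost on the TPM scale (-0.26, limma adjusted p = 0.0680 with a pseudocount of 1) and with the replicate block (-0.35, edgeR adjusted p = 0.0530). It was also lost without normal control 8 (-0.32, edgeR adjusted p = 0.0536), SKF 2 (-0.30, 0.0608), SKF 5 (-0.29, 0.0639) or SKF 6 (-0.29, 0.0621). Neuron markers moved with Mt3: 7 of 10 fell and 0 rose in vehicle, 6 of 10 fell in SKF, and Rbfox3 was at 0.06 ± 0.10 in vehicle (edgeR adjusted p = 0.598). The median log2 fold change of neuron markers was -0.36 in vehicle and -0.27 in SKF, and that of resting astrocyte markers, 8 of 10 of which fell in each, was -0.54 and -0.50. The part of these cells in the fall of Mt3 was not tested.

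TPM, a transcript abundance of fixed total per library, is scaled by gene length, so it lets the metallothioneins be set beside each other. In normal control Mt3 was the most abundant member at a mean of 1497 ± 137 TPM (SD, n = 8), number 39 of all genes, and Mt2A stood at 160 ± 32.6 TPM, number 872. In vehicle the order turned, with Mt2A at 1644 ± 363 TPM (number 34) and Mt3 at 1060 ± 233 TPM (number 67). In SKF, Mt2A was at 1867 ± 212 TPM (number 27) and Mt3 at 1261 ± 229 TPM (number 52). As a share of the summed TPM of Mt1, Mt2A and Mt3, Mt3 made up 85.7% to 93.5% in normal control libraries, 35.2% to 45.9% in vehicle and 33.9% to 44.9% in SKF. Every wounded library was below every normal control library. Mt1 was near or at 0 as counted, and its level is uncertain. The order and the share therefore rest on Mt1 as counted, and the share is in effect that of Mt3 beside Mt2A. Mean shares were 90.3% ± 2.31 (SD, n = 8), 39.3% ± 4.03 and 40.1% ± 3.98 in that order of groups. Against normal control the difference was -51.0 percentage points for vehicle and -50.1 for SKF (two-sided exact permutation tests, adjusted p = 0.000699 each over 9 tests). The raw p of 0.0001554 is the smallest that 12870 assignments can give. Between SKF and vehicle the share differed by 0.857 points (exact permutation adjusted p = 0.749).

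**Figure D2:**
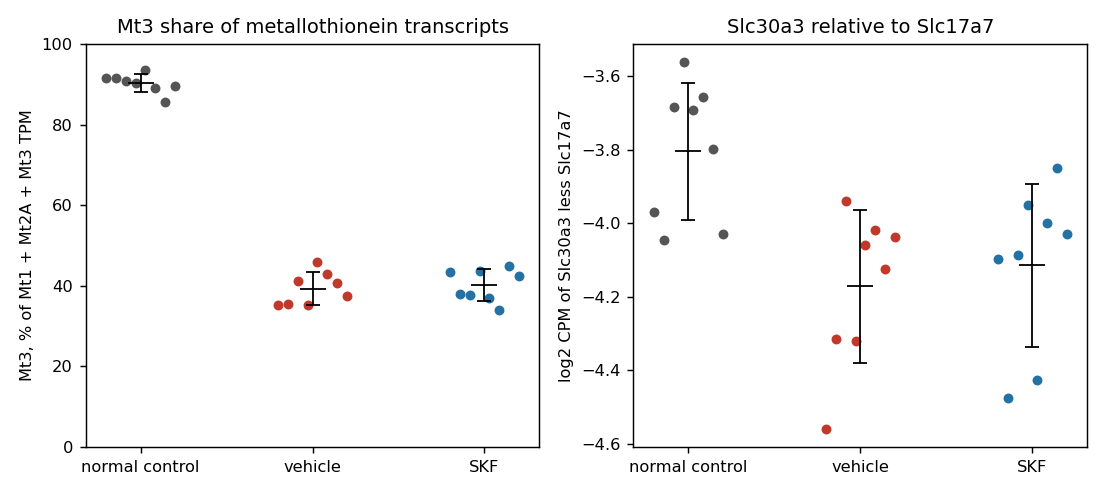
Library values of the Mt3 share of metallothionein TPM (percent, left) and of the log2 ratio of Slc30a3 to Slc17a7 (right), 1 point per library, with bars for the mean ± SD of 8 libraries. The Mt3 share of vehicle and SKF libraries lies wholly under that of normal control, whereas the ratio of Slc30a3 to Slc17a7 is lower on average with overlap.

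Mt2A and Mt3 are among the shortest transcripts tested: 0.229% and 0.187% of tested genes are shorter. The shortest 10% of tested genes, without the members and genes whose names start with Mt-, were 1430 genes. Their share of counts was a measure chosen after the genes most like Mt3 were seen. Over all libraries those were Atp5mc3, Ndufb4 and Ndufb10, with 8.38%, 2.34% and 1.36% of tested genes shorter. This share was 4.14% to 5.05% in normal control, 4.59% to 6.21% in vehicle and 4.86% to 6.09% in SKF. Across the 24 libraries, deviations from the group means of this share had Pearson's r = 0.489 with those of Mt3 and 0.313 with those of Mt2A, as a description. With the group means left in, r was -0.245 for Mt3 and 0.739 for Mt2A. Its part in the differences of Mt3 was not tested. The Mt3 share of metallothionein TPM compares transcripts of nearly the same length (Mt2A 0.181 and Mt3 0.174 of the length of Slc30a3).

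Mtf1, the zinc sensor, was at 38.9, 44.0 and 48.2 CPM in normal control, 28.4, 34.0 and 37.1 CPM in vehicle and 28.6, 34.8 and 36.5 CPM in SKF. In CPM all 16 wounded libraries were below all normal control libraries, but in TPM 3 of 8 vehicle and 3 of 8 SKF libraries were, normal control 6 being the lowest of its group at 16.8 TPM. Mtf1 fell by 0.42 ± 0.07 on the log2 scale in vehicle (edgeR adjusted p = 1.15e-05) and by 0.37 ± 0.07 in SKF (adjusted p = 6.61e-05). It moved in the opposite direction to Mt2A and Slc30a1, known targets of its protein, and a transcript level says nothing of the zinc-bound protein. On the TPM scale the change in vehicle was -0.28 (limma, pseudocount 1), still past the threshold. With that pseudocount the median of all genes was 0.11 in vehicle against normal control in place of -0.01 on counts. Calls were 5491 higher and 2410 lower in place of 3879 and 3904. For SKF they were 5004 and 2304 in place of 3682 and 3557.

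Slc30a1, which moves zinc out of the cell across the plasma membrane, was at 24.2, 27.0 and 32.7 CPM in normal control, 29.2, 33.9 and 37.0 CPM in vehicle and 27.9, 32.0 and 38.4 CPM in SKF. In CPM every wounded library was above the normal control median, with 5 of 8 vehicle and 3 of 8 SKF libraries above every normal control library. In TPM all 8 vehicle and all 8 SKF libraries were above every normal control library. On the TPM scale the median change of all genes in vehicle was 0.11 (log2, pseudocount 1). Slc30a1 rose by 0.26 ± 0.07 on the log2 scale in vehicle (edgeR adjusted p = 0.00263) and 0.24 ± 0.07 in SKF (adjusted p = 0.00547). The rise was 1.20-fold in vehicle and 1.18-fold in SKF, against 9.42-fold and 10.9-fold for Mt2A.

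Slc30a3, the exporter of synaptic vesicles, was at 50.2, 55.7 and 64.3 CPM in normal control, 30.8, 47.2 and 59.8 CPM in vehicle and 41.9, 50.8 and 74.8 CPM in SKF. Vehicle 2 and vehicle 1 were the lowest libraries, and 6 of 8 vehicle libraries were below all of normal control. SKF libraries lay on both sides, with 2 above and 4 below the whole normal control range. In TPM, 2 vehicle libraries were below that range and 1 above, while 1 SKF library was below and 2 above. The log2 fold change in vehicle was -0.29 ± 0.12 (95% interval -0.54 to -0.03, edgeR adjusted p = 0.0549), which did not pass. It passed with DESeq2 (adjusted p = 0.0407), in a fit of only the 2 groups (edgeR adjusted p = 0.0282) and without normal control 4 and 6 (-0.34, 0.0384). It also passed in edgeR without normal control 4 (-0.31, 0.0463), normal control 6 (-0.31, 0.0481), vehicle 5 (-0.35, 0.0220) or vehicle 6 (-0.33, 0.0362). It did not pass under the other settings: it was -0.18 on the TPM scale (limma adjusted p = 0.230), -0.30 with the replicate block (edgeR adjusted p = 0.0524) and -0.22 without vehicle 2 (edgeR adjusted p = 0.118, the highest with 1 library left out). In SKF the value was -0.06 ± 0.12 (edgeR adjusted p = 0.695), and on the TPM scale it was 0.013.

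Slc17a7, the vesicular glutamate transporter of the same forebrain terminals, did not pass in vehicle (log2 fold change 0.05 ± 0.12, edgeR adjusted p = 0.748), and its direction turned without normal control 4 (-0.0033). In SKF against normal control neither gene passed. Slc17a7 was at 0.22 ± 0.12 (edgeR adjusted p = 0.136) and Slc30a3 at -0.06 (adjusted p = 0.695). The ratio of Slc30a3 to Slc17a7 was lower in wounded brain, and in SKF more of the difference lay in Slc17a7. The log2 ratio of the pair averaged -3.80 ± 0.19 (SD, n = 8) for normal control, -4.17 ± 0.21 for vehicle and -4.11 ± 0.22 for SKF, with overlap between groups. All 8 vehicle and all 8 SKF libraries were below the normal control median of -3.74. The difference was -0.37 in vehicle (two-sided exact permutation test, p = 0.00311, adjusted p = 0.00932) and -0.31 in SKF (p = 0.00808, adjusted p = 0.0182). Without normal control 4 and 6 the SKF difference was -0.25 (exact permutation adjusted p = 0.0974) and no longer passed. Between SKF and vehicle the log2 ratio differed by 0.06 (exact permutation adjusted p = 0.749). Of 9 genes of glutamatergic vesicles and AP-3, the adaptor that sorts Slc30a3 to vesicles, 5 fell and 1 rose in vehicle (median -0.18), and 3 fell and 1 rose in SKF. Ap3m2, a neuronal AP-3 subunit, fell from 104 to 83.5 CPM (-0.32 ± 0.06, edgeR adjusted p = 2.02e-05, and -0.19 on the TPM scale). Slc17a6, the glutamate transporter of thalamic neurons, fell by 2.64 ± 0.54 on the log2 scale (edgeR adjusted p = 0.000300), with normal control 6 at 4.55 CPM and a group median of 174. Without normal control 6 the log2 fold change was -2.83, and without normal control 4 and 6 it was -2.90. Thalamus markers, a list that holds Slc17a6 itself, were lower for 9 of 10 genes in vehicle and in SKF. With Slc17a6 they summed to 98.5 to 1208 CPM in normal control, 92.3 to 247 in vehicle and 89.4 to 485 in SKF. Slc17a6 alone averaged 150, 24.1 and 27.4 CPM in that order of groups. The part of tissue make-up in the Slc30a3 values was not tested.

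Slc39a8, an importer of zinc and manganese, was the lowest tested member at 3.52, 5.67 and 7.05 CPM in normal control, 4.55, 5.50 and 6.86 CPM in vehicle and 2.55, 5.32 and 7.43 CPM in SKF. The 3 groups overlapped throughout. The log2 fold change was 0.09 ± 0.17 in vehicle (95% interval -0.26 to 0.44, edgeR adjusted p = 0.676) and 0.03 ± 0.17 in SKF (-0.32 to 0.37, adjusted p = 0.905). No difference was detectable at 31 to 87 counts a library, and the intervals leave room for changes of either direction.

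Slc39a14, an importer of zinc, iron and manganese known for its induction by interleukin 6 in liver, was at 29.2, 33.7 and 39.6 CPM in normal control, 39.5, 43.3 and 55.5 CPM in vehicle and 35.2, 40.4 and 50.8 CPM in SKF. In CPM 7 of 8 vehicle and 5 of 8 SKF libraries were above every normal control library, and in TPM 8 of 8 and 5 of 8. Slc39a14 rose by 0.40 ± 0.08 in vehicle (log2, edgeR adjusted p = 1.98e-04). In SKF the log2 fold change was 0.24 ± 0.08 (edgeR adjusted p = 0.0178). The SKF call was lost without SKF 6 (0.18, edgeR adjusted p = 0.0641) and without normal control 4 and 6 (0.17, adjusted p = 0.0952).

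**Figure D3:**
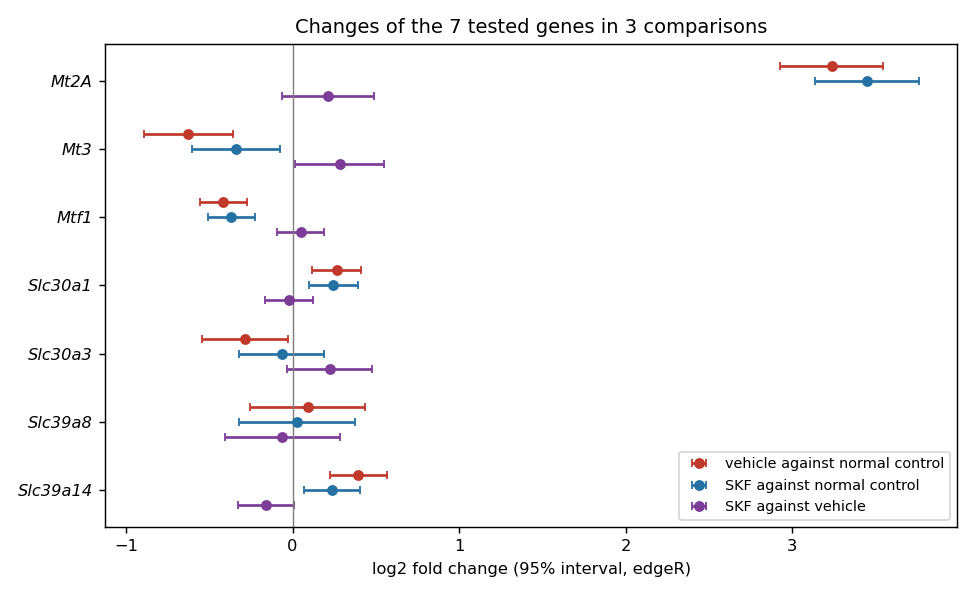
Log2 fold change of the 7 tested members in the 3 comparisons, from edgeR, with bars for the 95% interval. Mt2A stands at 3.24 and 3.45 against normal control, the other members lie within 1 log2 unit of 0, and every interval of SKF against vehicle other than that of Mt3 spans 0.

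SKF and vehicle libraries differ in the agonist, and edgeR called 0.0% of genes between them (0 of 14421, with 715 at an unadjusted p under 0.05, while DESeq2 called 6). None of the 7 tested members was called, and 0 of the 7 had groups that did not overlap, against 0.0139% of all genes. The log2 difference of Mt3, SKF over vehicle, was 0.28 ± 0.13 (95% interval 0.02 to 0.55, edgeR adjusted p = 0.937, unadjusted p = 0.0376), with 7 of 8 SKF libraries above the vehicle median. Slc39a14 was at -0.16 ± 0.08 (-0.33 to 0.01, unadjusted p = 0.0628), with 7 of 8 SKF libraries below the vehicle median. Slc30a3 was at 0.22 ± 0.12 (-0.03 to 0.48, unadjusted p = 0.0864) and Mt2A at 0.21 ± 0.13 (-0.07 to 0.49, unadjusted p = 0.129), each with an edgeR adjusted p = 0.937. The intervals put the difference of Mtf1 (0.05) between -0.09 and 0.19, that of Slc30a1 (-0.02) between -0.17 and 0.12 and that of Slc39a8 (-0.06) between -0.41 and 0.28. The median over the 7 was 0.05 and over all genes 0.00121.

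**Figure D4:**
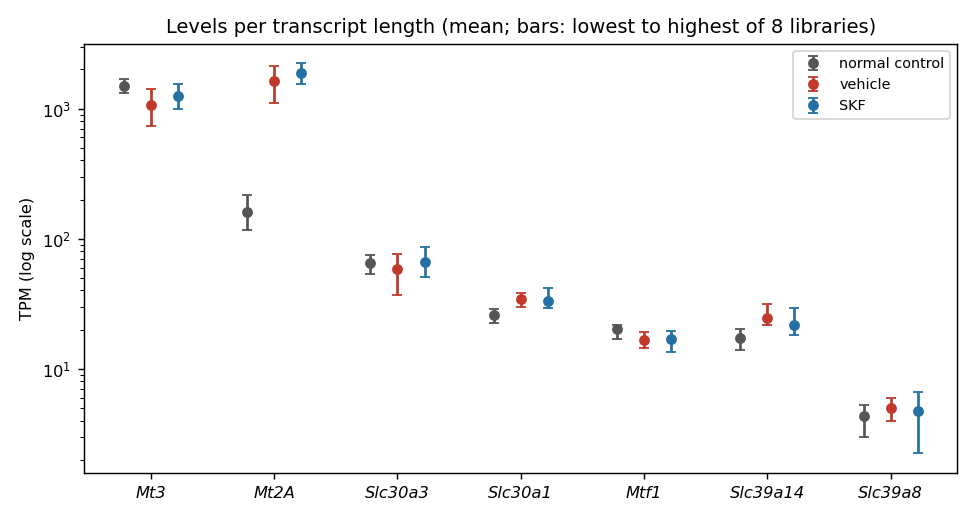
Mean TPM (log axis) of the members in each group, with bars for the lowest and highest library. Mt3 leads in normal control and Mt2A in vehicle and SKF, while Slc39a14 lies under Mtf1 in normal control and above it in the other groups.

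The remaining order of levels per length was the same in the 3 groups but for 1 exchange. Slc30a3 followed the metallothioneins at 65.1 ± 6.80 TPM (SD, n = 8) for normal control, 58.3 ± 12.0 for vehicle and 66.5 ± 13.7 for SKF. Slc30a1 came next at 26.1 ± 2.08, 34.2 ± 2.92 and 33.2 ± 4.10 TPM. In normal control Mtf1 (20.4 ± 1.72 TPM) stood above Slc39a14 (17.2 ± 2.20) in 7 of 8 libraries. Their ranges over the group, 16.8 to 21.7 and 13.9 to 20.3, overlapped. In vehicle Slc39a14 (24.8 ± 3.12) was above Mtf1 (16.7 ± 1.76) with no overlap. In SKF (21.8 ± 3.53 and 17.0 ± 2.14) the ranges overlapped, but Slc39a14 was above Mtf1 in each of the 8 libraries. The ranges of Mt2A and Mt3 overlapped in vehicle, at 1097 to 2110 and 730.0 to 1406 TPM, but Mt2A was above Mt3 in each of the 8 libraries. In SKF the ranges did not overlap, at 1543 to 2223 and 997 to 1534. Slc39a8 was at 4.31 ± 0.778, 5.02 ± 0.682 and 4.73 ± 1.36 TPM and was the lowest member in every group beside Mt1.

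Beyond the 8 members, 25 further metallothioneins and zinc transporters were listed, of which 22 are in the table and 16 were tested. In vehicle 5 were higher, 3 lower and 8 not called (median log2 fold change 0.05), in SKF against normal control the counts were likewise 5, 3 and 8 (median 0.09), and in SKF against vehicle 0 of 16 were called. Slc39a1 (ZIP1), an importer of the plasma membrane, rose from 45.4 ± 3.59 to 115 ± 20.2 CPM (SD, n = 8; log2 fold change 1.35 ± 0.09, edgeR adjusted p = 7.10e-13), with no overlap of the groups. Slc30a7, which loads zinc into the Golgi, rose from 7.80 to 12.2 CPM (0.64 ± 0.11, adjusted p = 2.84e-05), and Slc39a6, an importer, from 33.7 to 46.6 CPM (0.47 ± 0.09, adjusted p = 8.80e-05). Slc30a10, an exporter known for manganese, fell from 17.9 to 12.6 CPM (-0.50 ± 0.11, edgeR adjusted p = 0.000261). Slc39a3 fell from 51.6 to 41.1 CPM (-0.33 ± 0.07, adjusted p = 0.000140) and Slc30a9, a mitochondrial zinc exporter, from 191 to 153 CPM (-0.32 ± 0.05, adjusted p = 7.10e-06). The falls of these last genes were -0.20 and -0.19 on the TPM scale. Slc39a12, an importer enriched in astrocytes, did not pass (0.13 ± 0.12, adjusted p = 0.369), with normal control 6 the lowest library at 13.8 CPM. Without normal control 6 its value was 0.038, and without normal control 4 and 6 it was 0.061. Mt4 had a summed level of at most 0.174 CPM with Mt1m in any library, and neither was tested.

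**Figure D5:**
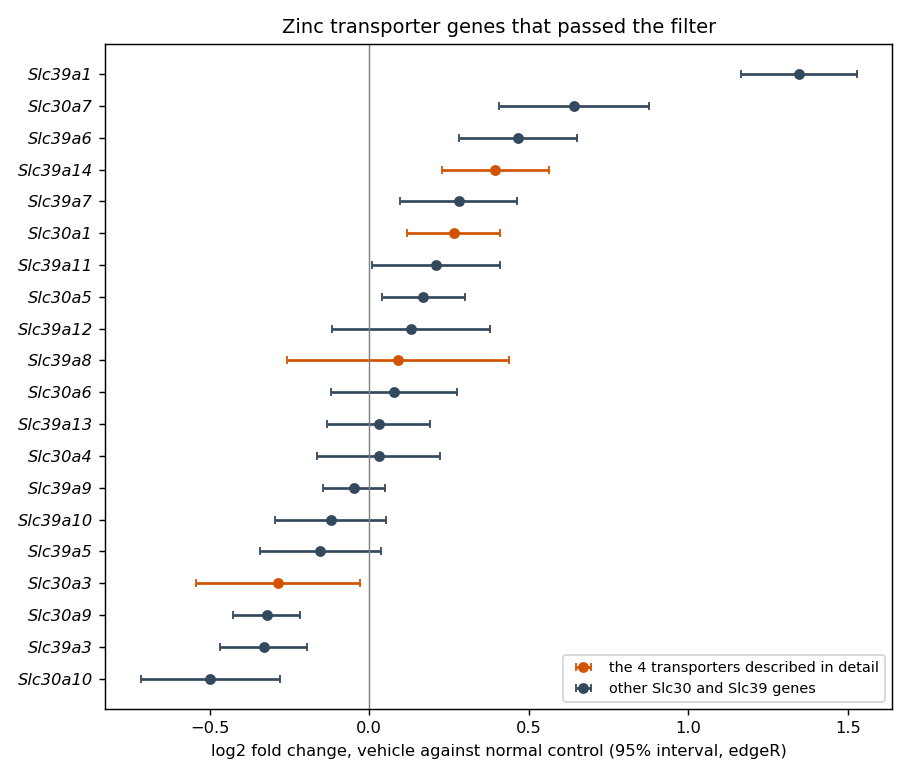
Log2 fold change of the zinc exporters and importers that passed the filter, members included, in vehicle against normal control, from edgeR, with bars for the 95% interval. Slc39a1 has the largest rise at 1.35, Slc30a7 and Slc39a6 follow, and Slc30a10 has the lowest value at -0.50.

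Over the 24 libraries, the genes most like each member were found by Pearson's r of log2 CPM among 12302 genes, as a description in which the points share the 3 groups. For Mt2A they included Hmox1 (r = 0.981) and Tubb6 (0.981). For Mt3 they were Atp5mc3 (0.900), Ndufb4 (0.889) and Ndufb10 (0.884). For Mtf1 they were Zfp106 (0.893), Ndnf (0.886) and Atrn (0.884), and for Slc30a1 Lactb (0.839), Hat1 (0.836) and Trmt6 (0.828). For Slc30a3 they were Clstn1 (0.849), Clec2l (0.845) and Nat8l (0.840), and for Slc39a14 Sesn2 (0.855), Aff1 (0.845) and Bcl6 (0.830). For Slc39a8 they were Ctnnal1 (0.581), Slc6a6 (0.580) and Plk5 (0.580), the lowest r of any member's nearest genes. With the group means taken out, the genes most like Mt2A were Gm5471 (0.811), Fip1l1 (0.799) and Hnrnpa3 (0.791), and those most like Mt3 were Prickle4 (0.895), Atp5if1 (0.873) and Mrps21 (0.856). Nat8l (0.827) and Clec2l (0.821) remained among the nearest 3 of Slc30a3. Between Mt2A and Mt3 the r was -0.556 over the libraries and 0.496 once group means were taken out.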

How the data were processed

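For 24 libraries the authors deposited gene-level read counts (whole numbers) and, in a separate table, TPM (each column sums to 1000000), on build mRatBN7.2 per the submitters' processing notes. Which aligner and counter were used is not given in the sources used here. Of 29539 identifiers, 6451 are Ensembl identifiers alone, of which 0 matched a symbol. Groups were read from sample titles, and replicate numbers were not used to pair samples.

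All 24 libraries were fitted together with edgeR 4.0.16 in R 4.3.3 (TMM, filterByExpr, robust quasi-likelihood F test, 21 residual degrees of freedom, biological coefficient of variation 16.2%). Benjamini-Hochberg adjustment ran over all 14421 genes tested, with a threshold of 0.05, and adjusted p-values of single genes come from this fit where no other tool is named. The 95% intervals use the same model. CPM uses TMM-scaled totals. The Mt3 share (TPM), the ratio of Mt2A to Mt1 (TPM plus 0.1) and the ratio of Slc30a3 to Slc17a7 (log2 CPM, prior count 2) were compared by two-sided exact permutation tests, adjusted over 9. The floor of 3 counts covers counting error only. The fit was tested on simulated data with known changes.

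The members, the gene lists and the tests were chosen with earlier results of these data known. Named beside the members are the 3 zinc genes with the smallest p that passed in each direction, the 2 members with the smallest p of each context list, the 3 most similar genes over all libraries for each tested member (2 for Mt2A), and Slc17a7, Slc17a6, Gfap, Aldoc, Aif1, Rbfox3, Nr3c1, Stat3 and Slc39a12. Fkbp5, Sgk1, Errfi1, Csf1r, P2ry12, Tmem119, P2ry13, Selplg, Lcn2 and Ms4a7 were added after their values were seen. So were S100a8, S100a9, Cxcr2, Mmp8, Mpo, Elane, Ngp, Camp, Msr1, Ccr2, Il11, Il6, Osm and Lif. Similar genes with the group means taken out are given for 3 members, also chosen after their values were seen.

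Alternatives were DESeq2 1.42.0, RLE size factors, other filters (none, or CPM of 1 in 8 libraries), only the 2 groups compared, the replicate number as a block, limma 3.58.1 on log2-transformed TPM (pseudocount 1 or 0.1; genes reaching a TPM of 0.5 in 8 libraries), each library left out, and normal control 4 and 6 left out. Other tools were Python 3.11.15, NumPy 2.4.6, pandas 2.3.3, SciPy 1.17.1 and Matplotlib 3.10.9. Promoters are from RefSeq (GRCr8). One of the genes most like Mt2A is not reported here.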

Additional observations from a re-analysis of the deposited data

Results flagged for a closer look

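Of 30 groups of 8 libraries tested for a library far from the rest, 1 stood out, and chance gives about 1 in 20. SKF 6 had a log2 CPM of 5.67 for Slc39a14, against 5.14 to 5.38 in the other SKF libraries, a gap of 0.549 of the group's range. Without SKF 6, Slc39a14 was no longer called in SKF against normal control.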

How the results depend on the processing

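Of 518 values of the members under the alternatives, 492 kept direction and side of the threshold, 9 no longer passed, 7 newly passed and 10 changed sign. The count of genes called was 7447 to 7845 for vehicle and 6885 to 7331 for SKF against normal control with 1 library left out, and 0 for SKF against vehicle, where DESeq2 called 6. Changes of sign were all of values that had not passed. Slc30a3 in SKF against normal control was 0.013 on TPM with either pseudocount. With 1 library left out, Slc39a8 ran from -0.051 to 0.14 in SKF against normal control and from -0.14 to 0.045 in SKF against vehicle, and Slc30a1 from -0.060 to 0.0079 in SKF against vehicle. Slc17a7 in vehicle was -0.058 without normal control 4 and 6 and ran from -0.0033 to 0.12 with 1 library left out. The ratio of Mt2A to Mt1 followed its pseudocount: in vehicle against normal control it was 2.04 with a pseudocount of 1, and -0.15 to 0.93 with 1 library left out. In SKF it was 2.85 with a pseudocount of 1, 2.24 on counts and 1.48 to 2.23 with 1 library left out. Both values with a pseudocount of 1 and the value on counts passed the threshold, as did SKF without SKF 4, 6 or 7. The ratio of Slc30a3 to Slc17a7 in SKF was -0.25 without normal control 4 and 6 and no longer passed. The cause of these changes was not tested.

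Same-numbered libraries did not deviate together (r from -0.241 to 0.0144, -0.186 to 0.044 and -0.124 to 0.0783 in the 3 comparisons, 0 best with their own number), so the numbers pair nothing. With the replicate block, edgeR called 7434, 6830 and 0 genes. Counts were lowest for Slc39a8 among the members tested, and Mt1 was under the filter.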

Other observations

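Copper is also bound by metallothioneins, and 8 genes of copper handling were tested. In vehicle against normal control 3 rose, 1 fell and 4 were not called (median log2 fold change 0.03), and the counts were the same in SKF against normal control. Cp, the copper-carrying ferroxidase ceruloplasmin, rose from 12.2 ± 3.74 to 63.6 ± 9.52 CPM (SD, n = 8; log2 fold change 2.38 ± 0.16, edgeR adjusted p = 3.08e-12), with all 8 vehicle libraries above all normal control libraries. Slc31a2, a low-affinity copper transporter, rose from 6.07 ± 1.87 to 11.9 ± 2.35 CPM (0.97 ± 0.16, adjusted p = 9.02e-06), with 7 of 8 vehicle libraries above all normal control libraries. In SKF their means were 54.7 ± 9.96 and 11.3 ± 1.85 CPM. In SKF against vehicle 0 of the 8 were called by edgeR, and the median was -0.07.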
